A study of Mus musculus with 4 samples.

Results

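The bile acid synthesis enzymes are the liver proteins that turn cholesterol into bile acids. They were taken as 10 genes given by symbol (Cyp7a1, Cyp8b1, Cyp27a1, Cyp7b1, Cyp39a1, Hsd3b7, Akr1d1, Amacr, Slc27a5 and Baat) out of 56748 genes in the deposited table, and all 10 symbols were found. The livers came from NSG mice, a strain without mature B, T and natural killer cells, and the genotype field reads WT in all 4 samples. The treated mice (n = 2) were gavaged with 5 doses of 55 mg/kg JIB-04, which inhibits the Jumonji family of histone demethylases, at 2 doses per week. The other mice (n = 2) were untreated, with no vehicle gavage described. Each library is 1 mouse, and the labels state neither age nor sex nor how long after the last dose the livers were taken.

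Bile acids are made along a classic route that starts with hydroxylation of the steroid nucleus of cholesterol by Cyp7a1, its rate-limiting step, and along an alternative route that starts on the side chain with Cyp27a1 or with other oxysterols. Oxysterols are then hydroxylated on the nucleus by Cyp7b1 or Cyp39a1, the routes share the nucleus enzymes Hsd3b7 and Akr1d1, and Cyp8b1 decides how much of the product becomes cholic acid. The side chain is then shortened in peroxisomes, where Amacr acts, and Slc27a5 and Baat attach taurine or glycine. Bile acids repress Cyp7a1 and Cyp8b1 through the receptor FXR and its target SHP, so that the pathway limits its own product.

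Values are FPKM, fragments assigned to a gene scaled by its length and by library size, so levels can be compared between genes. JIB-04 liver was set against untreated liver with limma on log2(FPKM + 1). The 10819 genes whose FPKM averaged 1 or more across libraries were tested, p-values were adjusted over all of them by Benjamini-Hochberg, and a gene was called at an adjusted p under 0.05. Of the 10 enzymes 9 were tested, and Hsd3b7 was not. Cyp39a1 fell in JIB-04 liver, 0 enzymes rose and 8 did not pass the test. Cyp39a1 reached the average of 1 FPKM through its untreated libraries alone. Beside this 1 call among 9 enzymes, 2.14% of all tested genes were called in either direction and 0.619% were called lower. The enzymes were chosen with earlier results of these data known, so these shares side by side are not a test of them. In 4 enzymes (Cyp8b1, Cyp27a1, Akr1d1 and Amacr) both JIB-04 libraries lay above both untreated libraries and in 2 (Cyp7a1 and Cyp39a1) below them, so 6 enzymes had no overlap between groups. Of all tested genes 46.4% had no overlap, 24.6% with JIB-04 higher and 21.8% with JIB-04 lower. The median log2 change of the 9 was 0.01, beside 0.01 for all tested genes. It was -0.095 under quantile normalization and 0.12 without untreated 2, beside -0.013 and 0.011 for all tested genes, and 0.17 for the 8 enzymes with a mean FPKM of at least 5, beside 0.022. Voom on the reads recovered from FPKM called 1 enzyme higher (Akr1d1) and 2 lower (Cyp7a1 and Cyp39a1), beside 5.04% of all tested genes called, 3.06% higher and 1.98% lower. At an unadjusted p under 0.05 limma had 3 enzymes higher and 2 lower, beside 15.5% of all tested genes, 9.06% higher and 6.47% lower.

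**Figure D1:**
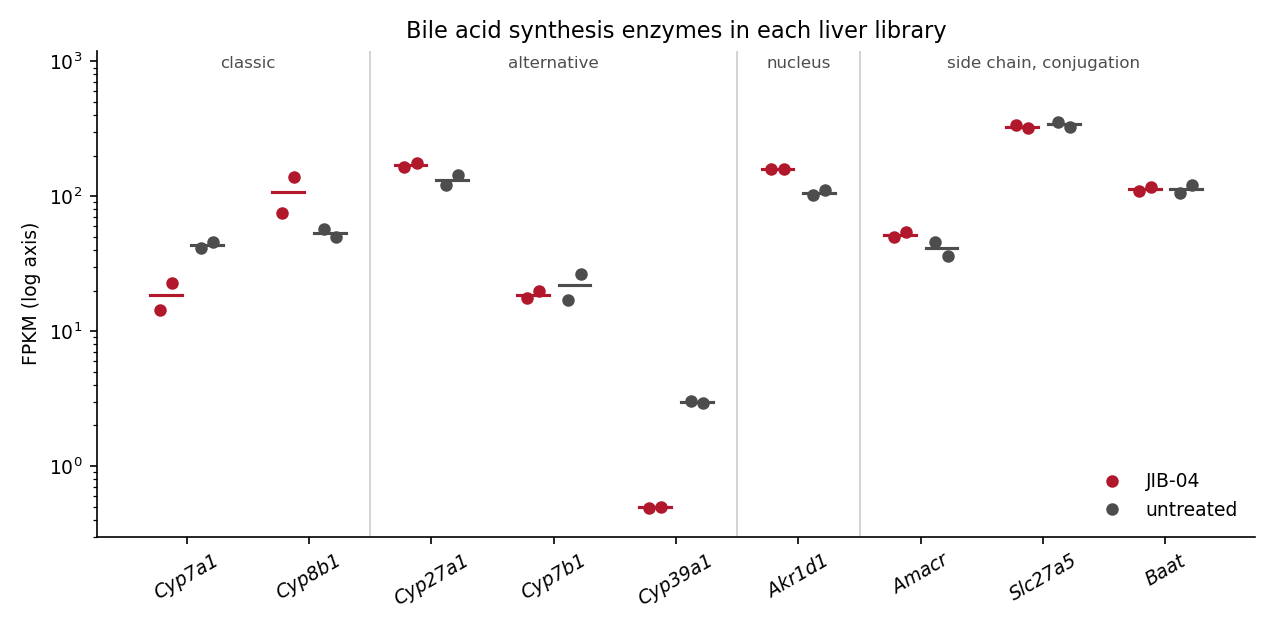
FPKM (log axis) of the 9 detected enzymes in each library, 1 point per library, with a line at the mean of the 2 libraries of a group; Hsd3b7, listed at 0 throughout, is left out. The JIB-04 points lie below the untreated ones for Cyp7a1 and Cyp39a1 and above them for Cyp8b1, Cyp27a1, Akr1d1 and Amacr.

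Cyp7a1 (ENSMUSG00000028240, chromosome 4, 6265612 to 6275633, minus strand, GRCm39), the enzyme that opens the classic route, was at 14.3 and 22.8 FPKM in JIB-04 1 and 2, against 41.4 and 46.1 FPKM in untreated 1 and 2. Both treated livers were below both untreated ones, and the treated livers differed more from each other than the untreated ones did. The group means were 18.5 ± 6.04 FPKM in JIB-04 and 43.8 ± 3.28 FPKM in untreated liver (SD, n = 2), so the untreated mean was 2.36 times the JIB-04 mean. The log2 change was -1.23 (SE 0.222, 95% interval -1.78 to -0.68), which missed the threshold (limma adjusted p = 0.0605). Adjusted p was below 0.05 in 5 of 16 alternative settings and ran from 0.00916 with the replicate block to 0.302 with no filter on low values. Cyp7a1 stood at rank 2482 and 1701 by FPKM among all genes of the table in JIB-04 1 and 2, against 1004 and 912 in untreated 1 and 2.

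Cyp8b1 (ENSMUSG00000050445, chromosome 9, 121743422 to 121745371, minus strand), the hydroxylase that sets the share of cholic acid, had values on the other side: 75.7 and 140.1 FPKM in JIB-04 1 and 2, against 57.6 and 49.6 FPKM in untreated 1 and 2. The groups did not overlap, but the JIB-04 libraries lay far apart and the second was the highest of the 4. Cyp8b1 averaged 108 ± 45.6 FPKM in JIB-04 and 53.6 ± 5.67 FPKM in untreated liver (SD, n = 2). Its log2 change was 0.93 (SE 0.314, 95% interval 0.11 to 1.76), it did not pass the test (limma adjusted p = 0.271), and 0 of 16 alternatives called it. Its log2 change was 0.49 with JIB-04 2 left out and 1.37 with JIB-04 1 left out.

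The 2 enzymes of the classic route lay on opposite sides of their untreated values. Cyp8b1 FPKM was 5.31 and 6.15 times Cyp7a1 FPKM in JIB-04 1 and 2, against 1.39 and 1.08 times in untreated 1 and 2. This ratio averaged 5.73 ± 0.592 in JIB-04 and 1.23 ± 0.222 in untreated liver (SD, n = 2), a 4.64-fold difference of means, given as a description without a test. Within the treated pair both genes were higher in JIB-04 2, and the ratio differed by a smaller share of its mean than either gene did. Within the untreated pair it differed by a larger share of its mean than either gene did.

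**Figure D2:**
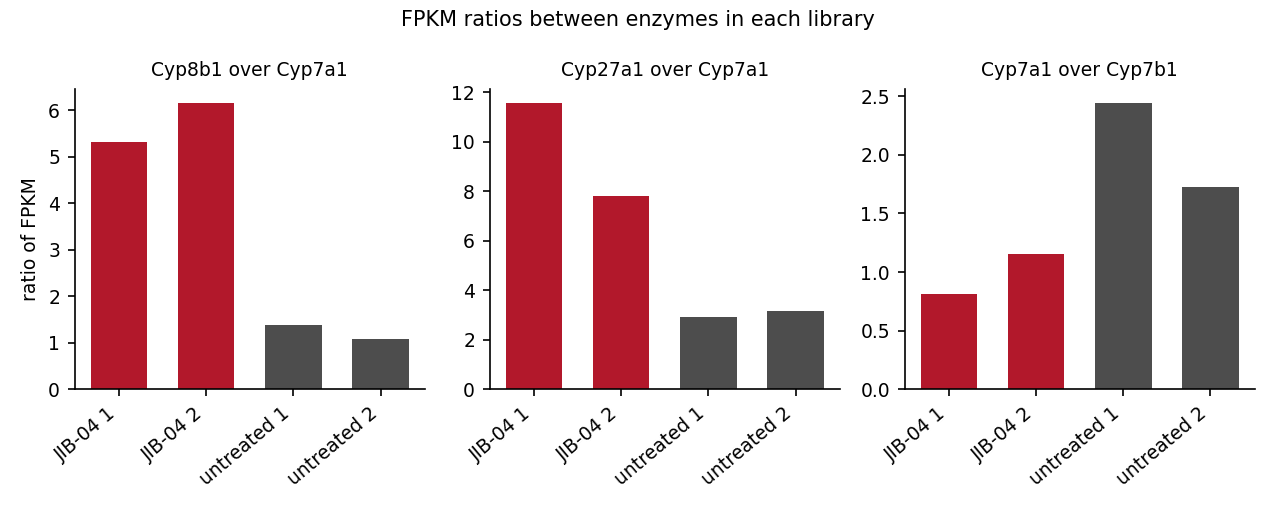
FPKM ratios within each library, 1 bar per library, for Cyp8b1 over Cyp7a1, Cyp27a1 over Cyp7a1 and Cyp7a1 over Cyp7b1. The first is 5.31 and 6.15 in the JIB-04 libraries and 1.39 and 1.08 in the untreated ones, and the JIB-04 bars of the third are the lowest of the 4.

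The RefSeq promoter table (GRCm38.p6, an older build than the GRCm39 of the FPKM table) held 4 of the 10 enzymes: Cyp27a1, Akr1d1, Hsd3b7 and Cyp8b1. The 250 bases before the annotated start were searched on both strands for AGGTCA, the half-site of many nuclear receptors, and for CAAGGNCA, the extended half-site bound by the liver receptor LRH-1 (Nr5a2), an activator of bile acid genes. The motifs share letters and can overlap. Of 32851 promoter windows 14.0% held AGGTCA and 5.53% held CAAGGNCA. The windows with a match, those of Cyp8b1 and Akr1d1, are shown, and Akr1d1 was added after its values were seen. No enzyme with a negative log2 change had a window, so matches could not be compared with the direction of change. Matches are in capitals, the strand is that of the gene, and a match on the other strand reads TGACCT.
Cyp8b1, chr9:121916306-121916555, minus strand: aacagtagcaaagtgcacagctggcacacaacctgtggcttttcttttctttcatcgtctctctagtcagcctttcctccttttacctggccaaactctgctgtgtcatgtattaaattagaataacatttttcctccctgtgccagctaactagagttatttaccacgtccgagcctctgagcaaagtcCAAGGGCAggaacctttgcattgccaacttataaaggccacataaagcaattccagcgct
Akr1d1, chr6:37529923-37530172, plus strand: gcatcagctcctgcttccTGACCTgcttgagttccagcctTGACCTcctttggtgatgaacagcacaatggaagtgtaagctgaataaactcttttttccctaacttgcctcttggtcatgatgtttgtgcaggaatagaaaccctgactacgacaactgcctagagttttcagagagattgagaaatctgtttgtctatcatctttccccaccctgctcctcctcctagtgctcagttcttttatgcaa
The Cyp8b1 window held 1 match, to CAAGGNCA on the strand of the gene, and the Akr1d1 window held 2, both to AGGTCA on the other strand. The windows of Cyp27a1 and Hsd3b7 held 0 matches. A match describes letters and is not evidence of binding, and Nr5a2 itself was at 12.1 and 10.5 FPKM in JIB-04 1 and 2, against 11.1 and 10.3 FPKM in untreated 1 and 2 (limma adjusted p = 0.871; singled out after its values were seen).

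On the alternative route, Cyp39a1 (ENSMUSG00000023963, chromosome 17, 43978316 to 44062322, plus strand), an oxysterol hydroxylase of the endoplasmic reticulum, was at 0.489 and 0.4995 FPKM in JIB-04 1 and 2, against 3.01 and 2.93 FPKM in untreated 1 and 2. The replicates of each group nearly coincided, and the groups lay far apart. These values rested on 64 and 56 reads in JIB-04 1 and 2, against 337 and 338 reads in untreated 1 and 2. Counts this low vary by sampling alone, so the closeness of 2 libraries does not measure the spread between animals. The gene fell to 0.494 ± 0.00745 FPKM in JIB-04 liver, against 2.97 ± 0.0561 FPKM in untreated liver (SD, n = 2), and the untreated mean was 6.01 times the JIB-04 mean. On the log2(FPKM + 1) scale, which understates changes of low genes, the change was -1.41 (SE 0.131, 95% interval -1.72 to -1.10, limma adjusted p = 0.00528), and on recovered reads with voom it was -2.59. The JIB-04 mean alone was under the minimum of 1 FPKM, so the gene entered the test through its untreated values. The call ended without JIB-04 1 (adjusted p = 0.0696), without JIB-04 2 (0.0846) and with no filter on low values (0.0887), and held in 12 of 15 alternatives.

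Cyp27a1 (ENSMUSG00000026170, chromosome 1, 74752733 to 74777051, plus strand), the mitochondrial enzyme that oxidizes the sterol side chain on both routes, was at 164.6 and 177.6 FPKM in JIB-04 1 and 2, against 121.4 and 144.9 FPKM in untreated 1 and 2. Both treated values were above both untreated ones, and the untreated livers differed more from each other than the treated ones. The log2 change was 0.36 (95% interval 0.03 to 0.70, limma adjusted p = 0.286), and 0 of 16 alternatives called it. It was 0.24 with untreated 1 left out. Kupffer cells also express Cyp27a1, and the summed FPKM of 8 Kupffer cell markers was 296 and 366 in JIB-04 1 and 2, against 397 and 343 in untreated 1 and 2, with 0 of the 8 called.

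Cyp7b1 (ENSMUSG00000039519, chromosome 3, 18126114 to 18297502, minus strand), the oxysterol hydroxylase of the same route, which is higher in male than in female mouse liver, was at 17.5 and 19.8 FPKM in JIB-04 1 and 2, against 16.98 and 26.6 FPKM in untreated 1 and 2. The groups overlapped, since untreated 1 was the lowest and untreated 2 the highest library. The log2 change of -0.19 (95% interval -0.72 to 0.34, limma adjusted p = 0.762) turned to 0.12 without untreated 2 and was -0.50 without untreated 1. Xist, transcribed from the inactive X chromosome of females, was between 36.5 and 47.7 FPKM in the 4 libraries, and the Y-linked genes Ddx3y, Eif2s3y and Kdm5d are listed at 0 in all 4.

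Cyp7a1 and the oxysterol hydroxylases Cyp7b1 and Cyp39a1 were also summed, without Cyp8b1, which is a hydroxylase of the nucleus too. Their sum was 32.2 and 43.0 FPKM in JIB-04 1 and 2, against 61.4 and 75.7 FPKM in untreated 1 and 2. Cyp7a1 made up 44.2% and 53.0% of that sum in JIB-04 1 and 2, against 67.5% and 60.9% in untreated 1 and 2. Its ratio to Cyp7b1, one view of the classic against the alternative route, was 0.815 and 1.15 in JIB-04 1 and 2, against 2.44 and 1.73 in untreated 1 and 2. In JIB-04 liver the levels of Cyp7a1 and Cyp7b1 overlapped, and in untreated liver all Cyp7a1 values were above all Cyp7b1 values. Cyp27a1 was 11.5 and 7.79 times Cyp7a1 in JIB-04 1 and 2, against 2.93 and 3.14 times in untreated 1 and 2. As FPKM sums, the classic pair Cyp7a1 and Cyp8b1 reached 89.9 and 162.9 in JIB-04 1 and 2, against 99.1 and 95.7 in untreated 1 and 2, so the sum hid the opposite positions of its members. The alternative trio of Cyp27a1, Cyp7b1 and Cyp39a1 summed to 183 and 198 FPKM in JIB-04 1 and 2, against 141 and 174 FPKM in untreated 1 and 2, most of it Cyp27a1.

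Among the nucleus enzymes shared by both routes, Akr1d1 (ENSMUSG00000038641, chromosome 6, 37507108 to 37545750, plus strand), the reductase that gives bile acids their bent ring, was at 158.5 and 159.9 FPKM in JIB-04 1 and 2, against 101.9 and 111.3 FPKM in untreated 1 and 2. The treated libraries were nearly equal and both above the untreated ones. Akr1d1 averaged 159 ± 1.002 FPKM in JIB-04 and 107 ± 6.69 FPKM in untreated liver (SD, n = 2), a 1.49-fold difference. The log2 change of 0.58 (SE 0.124, 95% interval 0.28 to 0.87) missed the threshold (limma adjusted p = 0.0738) and passed in 3 of 16 alternatives: voom (adjusted p = 0.0302), protein-coding genes only (0.0405) and a mean FPKM of at least 5 (0.0498). The pseudogene Gm7463, which lies inside the span of Akr1d1, was at 31.5 and 19.4 FPKM in JIB-04 1 and 2, against 22.8 and 31.7 FPKM in untreated 1 and 2. In the GENCODE M21 annotation (GRCm38) it shares 0% of the exonic bases of Akr1d1.

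Hsd3b7 (ENSMUSG00000042289, chromosome 7, 127399776 to 127402974, plus strand), the dehydrogenase that follows nucleus hydroxylation on every route, is listed at 0 in all 4 libraries. Its span lies within that of Gm49388 (127384780 to 127402974), a protein-coding gene of the same strand that is also listed at 0 in all 4 libraries, and overlaps 9430064I24Rik on the other strand, which held 4 and 1 reads in JIB-04 1 and 2, against 0 and 11 reads in untreated 1 and 2. In GENCODE M21, 62.0% of the exonic bases of Hsd3b7 are shared with Gm49388 and 99.2% with either gene. How the authors' counting treats reads of overlapping genes is not given in the sources used here, so the 0 says nothing about the level of Hsd3b7. The other 9 enzymes shared 0% of their exonic bases with another gene, and 0% of their 50-base words were found in transcripts of another gene.

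At the side chain and conjugation steps the groups were close for Slc27a5 and Baat. Slc27a5 (ENSMUSG00000030382, chromosome 7, 12722273 to 12732119, minus strand), the ligase that activates bile acids with coenzyme A, was at 340 and 318 FPKM in JIB-04 1 and 2, against 354 and 329 FPKM in untreated 1 and 2. Baat (ENSMUSG00000039653, chromosome 4, 49489422 to 49506557, minus strand), which joins the activated acid to taurine or glycine, was at 110.4 and 117.5 FPKM in JIB-04 1 and 2, against 105.2 and 121.3 FPKM in untreated 1 and 2. In both the groups overlapped. The log2 change was -0.05 for Slc27a5 (95% interval -0.37 to 0.26, limma adjusted p = 0.908) and 0.01 for Baat (95% interval -0.30 to 0.33, limma adjusted p = 0.984), and the sign of Baat flipped under quantile normalization, centring on the median, voom and 1 TPM scaling.

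Amacr (ENSMUSG00000022244, chromosome 15, 10981842 to 10996712, plus strand), the racemase that readies the side chain for peroxisomal shortening, was at 49.7 and 53.9 FPKM in JIB-04 1 and 2, against 46.1 and 36.4 FPKM in untreated 1 and 2. The groups did not overlap, but the closest values were 49.7 FPKM in JIB-04 1 and 46.1 FPKM in untreated 1. The log2 change was 0.33 (95% interval -0.02 to 0.69, limma adjusted p = 0.359), and it was 0.16 with untreated 2 left out and 0.498 with untreated 1 left out. The 3 side chain and conjugation enzymes summed to 495 ± 7.31 FPKM in JIB-04 and 496 ± 12.7 FPKM in untreated liver (SD, n = 2), most of it Slc27a5.

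**Figure D3:**
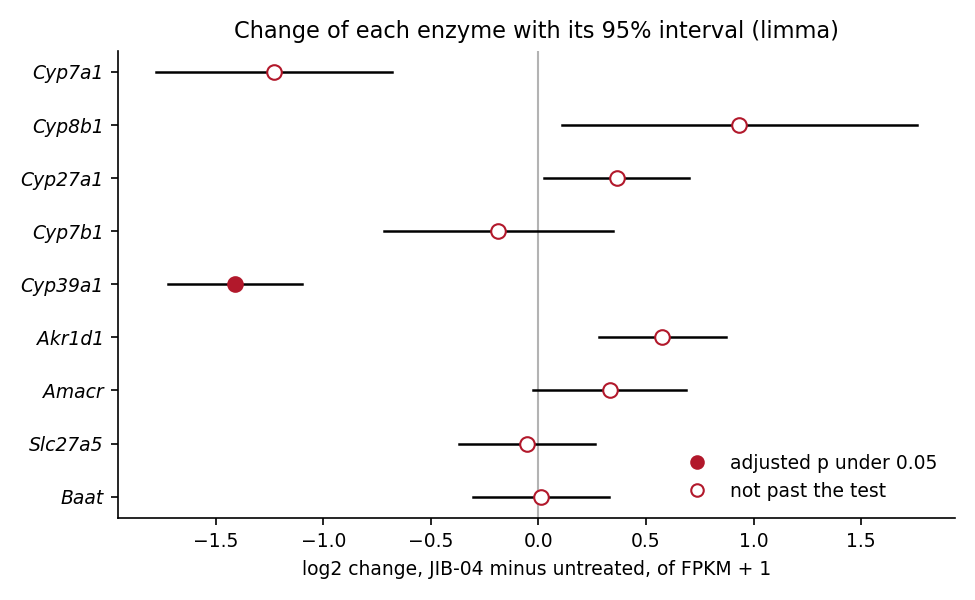
Log2 change of FPKM + 1, JIB-04 minus untreated, for the 9 tested enzymes, with the 95% interval of the limma fit as a line. Cyp39a1 (-1.41) is the filled point past the threshold, the interval of Cyp7a1 runs from -1.78 to -0.68, and those of Cyp7b1, Amacr, Slc27a5 and Baat span 0. Each interval is for 1 gene and is not adjusted for the number of genes, so an interval without 0 is not a call.

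By level, Slc27a5 had rank 1 and Cyp27a1 rank 2 in all 4 libraries, and Cyp39a1 was last of the 9 detected enzymes in all 4. Akr1d1 had rank 3 in both JIB-04 libraries, against rank 4 behind Baat in both untreated ones, where the values of Akr1d1 and Baat overlapped between animals. In JIB-04 liver Baat and Cyp8b1 overlapped, and in untreated liver Cyp7a1 and Amacr did. Cyp7a1 had rank 8 in JIB-04 1 and rank 7 in JIB-04 2, against rank 7 in untreated 1 and rank 6 in untreated 2. The read count behind these levels was lowest for Cyp39a1, and for the other detected enzymes ran from 1349 reads (Cyp7b1 in untreated 1) to 35515 reads (Slc27a5 in JIB-04 1).

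Across the alternative settings, Cyp7a1, Akr1d1 and Cyp39a1 were the enzymes whose adjusted p crossed 0.05. With either JIB-04 library left out the number of enzymes called was 0, where the lone treated library is assumed to vary like the untreated ones. With either untreated library left out it was 1, and the gene was Cyp39a1 each time.

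**Figure D4:**
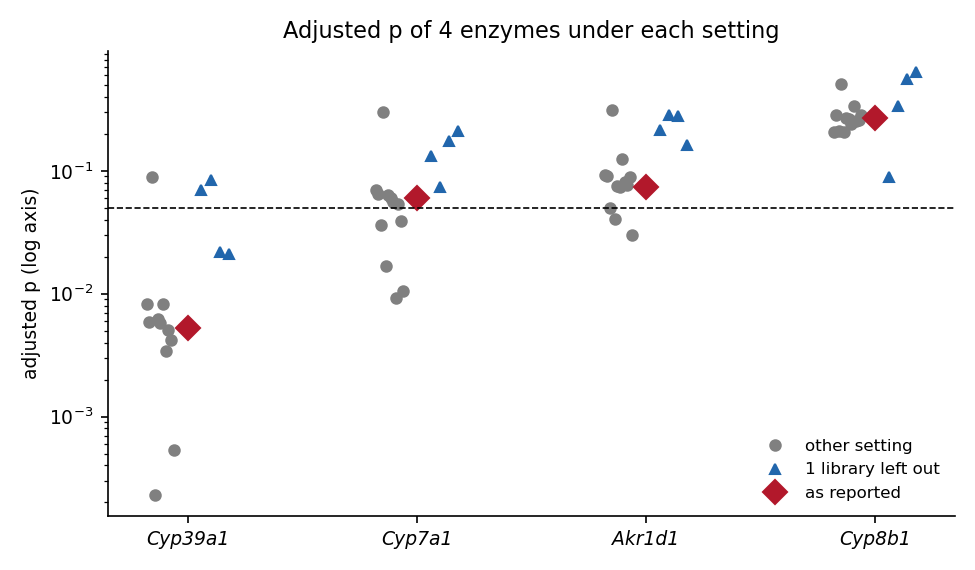
Adjusted p (log axis) of 4 enzymes as reported (diamond), with 1 library left out (triangles) and under the other settings (circles); the dashed line marks 0.05. The reported points are 0.00528 for Cyp39a1, 0.0605 for Cyp7a1, 0.0738 for Akr1d1 and 0.271 for Cyp8b1, and some settings of the first 3 lie on the other side of the line.

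Of 14 further genes of bile acid synthesis 13 were tested, and limma called 0 (at an unadjusted p under 0.05, 2 were higher and 3 lower, beside 9.06% and 6.47% of all tested genes; voom called 1, Hsd17b6, higher, beside 3.06%). Hsd17b6 was also called higher without untreated 1, and Acot3 was called lower without untreated 2. Their median log2 change was -0.10. Hsd17b6, a sterol dehydrogenase, was at 586 and 627 FPKM in JIB-04 1 and 2, against 423 and 278 FPKM in untreated 1 and 2 (limma adjusted p = 0.128). Cyp2a12, which in the mouse hydroxylates secondary bile acids, was at 32.2 and 41.0 FPKM in JIB-04 1 and 2, against 21.7 and 29.0 FPKM in untreated 1 and 2 (limma adjusted p = 0.249). Lower in both treated livers were Cyp46a1, a cholesterol side chain hydroxylase, with 34.3 and 41.7 FPKM in JIB-04 1 and 2, against 47.5 and 59.7 FPKM in untreated 1 and 2 (limma adjusted p = 0.215), and Acaa1b, a peroxisomal thiolase (limma adjusted p = 0.229). Cyp2c70, the mouse enzyme that makes muricholic acids, singled out after its values were seen, was at 291 and 253 FPKM in JIB-04 1 and 2, against 262 and 392 FPKM in untreated 1 and 2, so the groups overlapped.

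Regulators of the pathway had 21 of 23 genes tested. Limma called 0 of them (at an unadjusted p under 0.05, 0 were higher and 2 lower, beside 9.06% and 6.47% of all tested genes; voom called 1, Ppargc1a, lower, beside 1.98%), and the median log2 change was -0.12. Ppargc1a, a coactivator that raises Cyp7a1 in fasting, was at 0.860 and 0.715 FPKM in JIB-04 1 and 2, against 1.49 and 1.71 FPKM in untreated 1 and 2 (limma adjusted p = 0.126). It passed the filter on low values through its untreated libraries alone, and it was called in 2 of 15 alternatives, voom and protein-coding genes only. Foxo1, a fasting transcription factor, was at 3.27 and 3.69 FPKM in JIB-04 1 and 2, against 5.75 and 4.26 FPKM in untreated 1 and 2 (limma adjusted p = 0.273). Nr1i3, the receptor CAR, had an adjusted p of 0.483 (limma), and Fgfr4, the hepatic receptor of the intestinal hormone that represses Cyp7a1, 0.488 (limma).

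The genes of the negative loop and the clock genes Dbp and Nr1d1 were singled out after their values were seen. Nr1h4, which encodes FXR, was at 47.7 and 57.6 FPKM in JIB-04 1 and 2, against 55.9 and 53.4 FPKM in untreated 1 and 2. Nr0b2, which encodes SHP, was at 30.4 and 32.7 FPKM in JIB-04 1 and 2, against 26.5 and 50.04 FPKM in untreated 1 and 2 (limma adjusted p = 0.836), so the untreated livers held both the lowest and the highest value. Fgf15, the hormone gene of the intestine, is listed at 0 in all 4 libraries. Dbp, a clock output factor that drives the daily rhythm of Cyp7a1, was at 13.1 and 23.6 FPKM in JIB-04 1 and 2, against 21.5 and 20.0 FPKM in untreated 1 and 2. It was thus lowest in JIB-04 1, the library with the lowest Cyp7a1, and highest in JIB-04 2, where Cyp7a1 was also below both untreated values. The clock receptor Nr1d1 was likewise lowest in JIB-04 1, at 4.33 FPKM, and highest in JIB-04 2, at 10.7 FPKM, against 6.80 and 6.31 FPKM in untreated 1 and 2. The part of the clock genes in the Cyp7a1 values was not tested.

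The transporter list held carriers of bile acids and also the lipid and sterol transporters Abcb4, Abcg5, Abcg8 and Atp8b1. Of its 13 tested genes 3 were higher, 0 lower and 10 not past the test, beside 1.53% of all tested genes called higher and 0.619% lower. At an unadjusted p under 0.05 limma had 5 higher and 1 lower, beside 9.06% and 6.47% of all tested genes. Voom called 4 higher, with Abcc4 added, and 1 lower (Atp8b1), beside 3.06% and 1.98%. The median log2 change of this list was 0.20, and it was drawn up with earlier results of these data known. Abcb11, the export pump of the bile canaliculus, rose to 127.7 and 130.6 FPKM in JIB-04 1 and 2, against 67.1 and 80.2 FPKM in untreated 1 and 2 (limma adjusted p = 0.0398). The basolateral exporter Abcc3 (adjusted p = 0.0125) and the uptake carrier Slco1a4 (adjusted p = 0.00453) also rose by limma. All 3 calls ended when JIB-04 1 was left out (limma adjusted p = 0.173, 0.149 and 0.0815 for Abcb11, Abcc3 and Slco1a4) and when JIB-04 2 was (0.226, 0.163 and 0.0742). The Abcb11 call also ended when untreated 1 (0.145) or untreated 2 (0.0536) was left out, under quantile normalization and under eBayes with neither trend nor robust moderation, and held in 9 of 16 alternatives. With no filter on low values 0 transporters were called. Atp8b1, a lipid flippase that protects the canalicular membrane, was at 5.38 and 4.503 FPKM in JIB-04 1 and 2, against 7.45 and 7.53 FPKM in untreated 1 and 2 (limma adjusted p = 0.110). The main uptake carrier Slc10a1, singled out after its values were seen, was at 271 and 288 FPKM in JIB-04 1 and 2, against 276 and 313 FPKM in untreated 1 and 2.

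Enzymes that hydroxylate, sulfate or glucuronidate bile acids, listed together with Papss2, had 5 of 7 genes higher, 1 lower and 1 not past the test. Of all tested genes 1.53% were called higher and 0.619% lower. This list was drawn up with earlier results of these data known, so the 2 shares side by side are not a test of it. The summed FPKM of the list was 9384 ± 510 in JIB-04 and 1553 ± 49.8 in untreated liver (SD, n = 2), most of it Cyp3a11. Cyp3a11 (limma adjusted p = 0.000284), Cyp3a25 (0.00439) and the sulfotransferase Sult2a1 (0.000717) rose. Papss2, which makes the sulfate donor, rose to 181 and 169 FPKM in JIB-04 1 and 2, against 89.4 and 89.2 FPKM in untreated 1 and 2 (limma adjusted p = 0.0164). Ugt1a1, a glucuronosyltransferase whose exons are largely shared with other Ugt1a genes, rose to 43.8 and 38.1 FPKM in JIB-04 1 and 2, against 24.3 and 19.7 FPKM in untreated 1 and 2 (limma adjusted p = 0.0407). Sult2a8, the sulfotransferase that acts on primary bile acids in mouse liver, fell to 74.8 and 93.4 FPKM in JIB-04 1 and 2, against 168 and 144 FPKM in untreated 1 and 2 (limma adjusted p = 0.0460). With either JIB-04 library left out this list had 1 gene higher and 0 lower (Cyp3a11 each time), and with either untreated library left out it had 3 higher and 0 lower. With no filter on low values it had 2 higher (Cyp3a11 and Sult2a1) and 0 lower. The Sult2a8 call also ended with median centring and with eBayes without trend and robust moderation, and held in 9 of 16 alternatives. The Ugt1a1 call ended under quantile normalization and with eBayes without trend and robust moderation, and likewise held in 9 of 16 alternatives. Cyp3a and Sult2a genes have close relatives, and how shared reads were assigned is not stated. These genes and the synthesis enzymes were measured in the same 4 livers and share the untreated libraries.

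**Figure D5:**
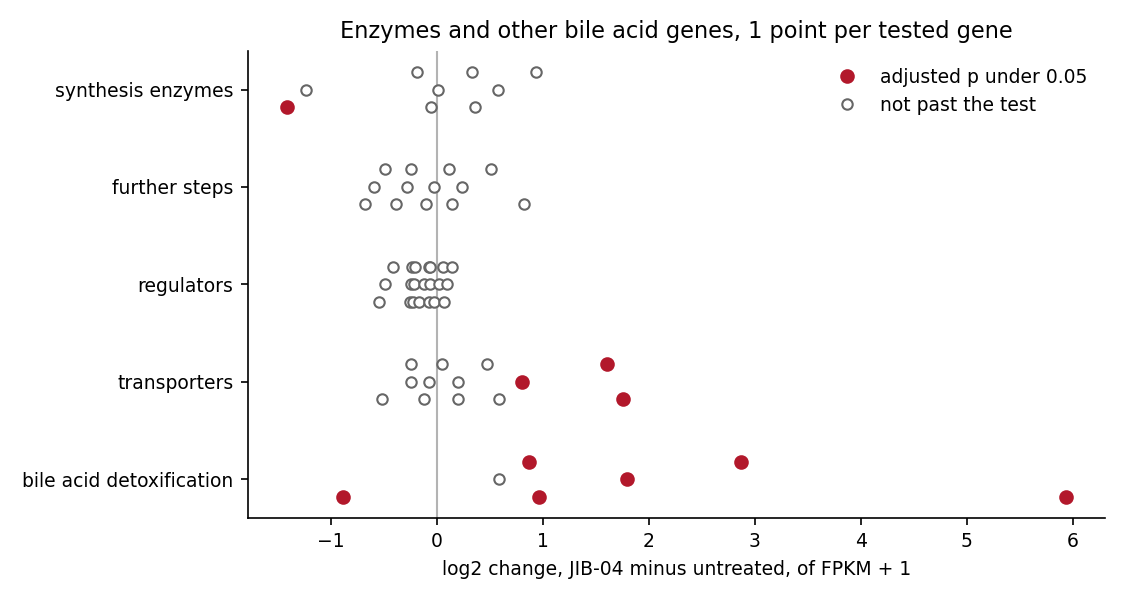
Log2 change of FPKM + 1, JIB-04 minus untreated, 1 point per tested gene, for the synthesis enzymes and 4 further lists; filled points passed the limma test and vertical offsets only separate the points. Filled points to the right of 0 are transporters and detoxification enzymes, while Cyp39a1 (-1.41) and Sult2a8 lie to the left.

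The genes with the profile most like that of Cyp7a1, by Euclidean distance of log2(FPKM + 1) centred on the mean of the 4 libraries among tested protein-coding genes, were G6pc (distance 0.141), Ren1 (0.269), Fads3 (0.275), Mug2 (0.289) and Ces3b (0.352). G6pc, the last enzyme of glucose production, was at 34.3 and 56.9 FPKM in JIB-04 1 and 2, against 93.5 and 118 FPKM in untreated 1 and 2. Nearest to Cyp39a1 were Enho (0.235), Car14 (0.313), Rnase4 (0.326), Fabp2 (0.367) and Uox (0.406). With 4 libraries such a likeness is a description of these values only.

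Recovered reads numbered 36469514 to 43283827 per library. All 8 hepatocyte markers passed the filter on low values and 0 were called, while their summed FPKM was 42655 and 34935 in JIB-04 1 and 2, against 60857 and 59320 in untreated 1 and 2, a gap that lay mainly in albumin (Alb, 31689 and 22910 in JIB-04 1 and 2, against 46658 and 46858 in untreated 1 and 2; limma adjusted p = 0.144). Markers of pericentral hepatocytes, where Cyp7a1 is mainly expressed in mouse liver, summed to 3586 and 3636 FPKM in JIB-04 1 and 2, against 4556 and 3360 FPKM in untreated 1 and 2. Most of this sum was Cyp2e1. Of 6 tested markers 1 (Oat) was called higher and 0 lower. Slc1a2 lay on the other side, at 6.69 and 6.66 FPKM in JIB-04 1 and 2, against 11.4 and 9.77 FPKM in untreated 1 and 2. It was not called (limma adjusted p = 0.0730). Periportal markers summed to 1460 and 1844 FPKM in JIB-04 1 and 2, against 2144 and 2011 FPKM in untreated 1 and 2, with 0 of 8 called. Both JIB-04 libraries were above both untreated ones for 3 (Cyp2f2, Hal and Cdh1) and below them for 3 (Sds, Gls2 and Ass1). Of all tested genes 24.6% and 21.8% were so placed. Ass1 was at 357 and 379 FPKM in JIB-04 1 and 2, against 591 and 807 FPKM in untreated 1 and 2 (limma adjusted p = 0.0612). Cholangiocyte markers summed to 40.3 and 47.8 FPKM in JIB-04 1 and 2, against 45.1 and 39.2 FPKM in untreated 1 and 2, most of it Spp1. Summed endothelial markers (65.2 and 68.7 FPKM in JIB-04 1 and 2, against 81.8 and 63.1 FPKM in untreated 1 and 2) had 0 of 6 called and stellate markers (51.1 and 47.8 FPKM in JIB-04 1 and 2, against 70.0 and 54.4 FPKM in untreated 1 and 2) 0 of 4. Neutrophil and red cell markers summed to 660.4 and 1737 FPKM in JIB-04 1 and 2, against 2780.2 and 1714 FPKM in untreated 1 and 2, with 0 of 5 tested genes called and JIB-04 1 the lowest library. Most of this sum was the globins Hba-a1 and Hbb-bs, whose JIB-04 means were 0.515 and 0.504 times the untreated means. The neutrophil gene S100a8 was at 36.3 and 63.02 FPKM in JIB-04 1 and 2, against 6.68 and 2.403 FPKM in untreated 1 and 2 (limma adjusted p = 0.131), and 2 of 16 alternatives called it. The other neutrophil genes did not follow S100a8. S100a9 was at 7.51 and 8.45 FPKM in JIB-04 1 and 2, against 18.7 and 4.01 FPKM in untreated 1 and 2. Under the filter on low values were Ngp (0.191 and 0.156 FPKM in JIB-04 1 and 2, against 0.803 and 0.433 FPKM in untreated 1 and 2) and Camp. Of the intestine markers Cdx2 is listed at 0 throughout, Vil1 was under the filter on low values and Fabp2, which liver also expresses, was called lower. Lgals4 was at 5.46 and 10.1 FPKM in JIB-04 1 and 2, against 7.88 and 4.08 FPKM in untreated 1 and 2. Slc10a2 was at 13.9 and 8.73 FPKM in JIB-04 1 and 2, against 9.14 and 9.29 FPKM in untreated 1 and 2. Neither Lgals4 nor Slc10a2 was called. In whole liver, fewer cells of a type and less RNA per cell cannot be told apart, and the part of these markers in the enzymes' values was not tested.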

How the data were processed

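Trizol-extracted liver RNA was sequenced after a company's standard library preparation, per the labels' protocols. The authors deposited FPKM values in 1 table, beside gene lengths, coordinates and biotypes. The submitters' processing notes name the builds GRCm39 and mm39, and no source used here states the aligner, counter, annotation release or strandedness. Reads were recovered from FPKM and gene length: every value above 0 was a whole number of reads in its library (tolerance 0.01 of a read, relaxed in proportion for high counts). They served for depth and voom.

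Differences were tested with limma 3.58.1 in R 4.3.3 (two-sided, trended and robust eBayes) on log2(FPKM + 1), with 2 residual degrees of freedom. An exact permutation test of 2 against 2 cannot go below p = 0.333. Voom used TMM factors computed from their published formula. Alternatives were pseudocounts of 0.1 and 0.5, filters, scalings, moderation, protein-coding genes only, the replicate block and each library left out. The fit was tested on simulated reads. Samples are separate mice per the series' design text.

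The members and lists were chosen with earlier results of these data known. Named were all members, and in each other list the called genes and up to 4 of lowest p; others are marked as singled out after their values were seen. Promoter windows came from RefSeq (GRCm38.p6) and exon overlaps from GENCODE M21 (GRCm38).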

Additional observations from a re-analysis of the deposited data

How the results depend on the processing

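Of 232 called genes, 165 (71.1%) were higher. Calls numbered 20 with no filter on low values (100% higher), 397 with protein-coding genes only, 357 with the replicate block and 545 with voom (60.7% higher), and 59.8% of 261 were higher after rescaling to TPM with the 50 most abundant genes and those of mitochondria left out of the sum. They ranged from 23 to 156 when 1 library was left out (30 without JIB-04 1, 23 without JIB-04 2). Against 1 enzyme called, there were 2 with a mean FPKM of at least 5 (Akr1d1 and Cyp7a1; Cyp39a1 was not tested), 0 with no filter, 3 with protein-coding genes only, 2 with the replicate block, 2 with TPM without the most abundant genes, 3 with voom, and 0 to 1 with 1 library left out. The filters, the gene restriction and the left-out libraries change the genes or samples in the fit; for the block, voom and TPM the cause was not tested.

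The log2 change of Baat turned negative with centring on the median (-0.0010), quantile normalization (-0.095), TPM without the most abundant genes (-0.045), voom (-0.0029), and without JIB-04 2 (-0.033) or untreated 1 (-0.091); it ran from -0.091 to 0.11 with 1 library left out. That of Cyp7b1 was 0.12 without untreated 2 and ran from -0.50 to 0.12. The other 7 tested enzymes kept their sign in every alternative that tested them. The labels do not say that a replicate number marks a shared cage, litter or day, so the numbers were not taken as pairs. Deviations of same-numbered libraries correlated at -0.05 across genes, which cannot settle whether the numbers mark pairs. With the replicate block Cyp7a1 had an adjusted p of 0.00916 (limma). Depth limits mainly Cyp39a1, which had 56 to 338 reads, and 2 animals a group limit all comparisons.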
